A study of Homo sapiens with 7 samples.

Results

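The genes described here carry ZNF symbols and lie outside chromosome 19. Most such genes encode C2H2 zinc finger proteins, the largest family of human transcription factors, but the symbol does not assure it. No finger was found in 8 of the members taken below, and 5 had no protein in the reference. Rows whose symbol is ZNF, a number and at most 1 letter, and whose row name places them on a chromosome other than 19, X or Y, were taken where they had 10 or more counts in at least 3 of the 6 libraries that list them. The rule found 216 genes among 248 such rows, and 13566 genes of all kinds passed the same count threshold. Of the 216, 202 had 10 or more counts in all 6 libraries and 14 in fewer. The 32 rows that did not pass had 10 or more counts in at most 2 libraries. The gene nearest the threshold inside it was ZNF718, with 12, 8, 8, 12, 8 and 12 counts at 0, 60, 120, 240, 600 and 720 min. The nearest outside was ZNF385B, with 13, 7, 7, 3, 6 and 11 counts. The members were chosen by name and selected on their transcript counts, the values described below, and the family was picked with its time course known, so counts and medians over the members describe them and test nothing about the family.

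The cells were H4, an established neuroglioma line, carrying opto-PKR (Cry2Olig-PKR). In it the kinase PKR is joined to a plant protein, Cry2Olig, that clusters under blue light. Active PKR phosphorylates the translation factor eIF2 and so sets off the integrated stress response, which lowers most protein synthesis while a few mRNAs are translated more. All groups carried opto-PKR and differed only in minutes of continuous blue light before lysis, 0, 60, 120, 240, 480, 600 or 720, with 1 library per time. The question was how the transcriptome moves during sustained light. No culture kept dark until the end, and no illuminated culture lacking opto-PKR, was analysed here, so light and time in the plate cannot be told apart. The labels do not say whether the line is 1 clone.

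Zinc fingers of the C2H2 kind hold a zinc ion between a pair of cysteines and a pair of histidines and read a few bases of DNA each, and most ZNF proteins carry several in a row. Many also carry a KRAB box, which recruits TRIM28 (KAP1), SETDB1 and HP1 proteins to silence chromatin, often at transposable elements. Others carry a SCAN domain, which pairs proteins, or no such domain, and among these are promoter activators, chromatin complex subunits and RNA-binding proteins. The densest clusters lie on chromosome 19. The members described here are spread over the other autosomes, singly or in short runs.

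The 6 libraries that list ZNF genes held 7048253 to 8911818 transcripts. The 480 min table ends in the alphabet before ZNF, so the members have no value there. Reads per unique molecule were 2.11 at 60 min and 2.08 at 120 min, and 2.32 to 2.38 in the other libraries. GFAP and S100B, astroglial markers, were not listed, AQP4 stood at 0 CPM (counts scaled to a common library total) in 5 of the 6 libraries and at 0.114 in the other, and VIM stood at 686 to 900 CPM. Of the other marker lists, PTPRC did not exceed 0.351 CPM, MBP 0.342 or PECAM1 0.818, and CDH5 and AIF1 were not listed. Of the neuronal markers, TUBB3 stood at 197 to 323 CPM, SNAP25 fell from 5.96 to 0.399 CPM (edgeR adjusted p = 0.0102 for the trend given below) and SYT1 rose from 45.2 to 84.4 (edgeR adjusted p = 0.0448). SOX9 stood at 44.0 to 95.9 CPM and CD68 at 4.94 to 7.92. SLC1A3 (8.30 to 16.0 CPM) and OLIG2 (5.02 to 20.4) had upward bends and MOG (3.51 to 11.3) a downward one under the test given below, and the part of these genes in the members' course was not tested. Levels in CPM are shares of a library, so more RNA of a gene and less RNA of the others cannot be told apart.

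Promoters are shown for members that moved in opposite directions. The levels of ZNF697, ZNF23 and ZNF853 are described below. ZNF697, ZNF23 and ZNF12 stood highest at 240 min and ZNF853 lowest. ZNF12, a KRAB gene, was chosen for its motifs after its values were seen, and stood at 37.3 CPM at 0 min and 99.2 at 240. Each run is the RefSeq promoter of build GRCh38.p14, 300 bases that lie mostly before the start of transcription, 5′ to 3′ on the gene's own strand. Capitals mark motif matches, a GC box and a ZNF143 part in ZNF697, an ETS match in ZNF23, ETS and NRF1 matches in ZNF12 and 5 GC boxes in ZNF853. The places are chr1:119648217-119648516 (minus strand) for ZNF697, chr16:71462198-71462497 (minus) for ZNF23, chr7:6706898-6707197 (minus) for ZNF12 and chr7:6615360-6615659 (plus) for ZNF853.
ZNF697: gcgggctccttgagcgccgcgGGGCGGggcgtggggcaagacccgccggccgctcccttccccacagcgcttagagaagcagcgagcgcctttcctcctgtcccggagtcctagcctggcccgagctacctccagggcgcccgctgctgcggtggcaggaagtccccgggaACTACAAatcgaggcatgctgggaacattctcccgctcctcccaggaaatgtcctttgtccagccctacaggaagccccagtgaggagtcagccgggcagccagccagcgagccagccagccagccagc
ZNF23: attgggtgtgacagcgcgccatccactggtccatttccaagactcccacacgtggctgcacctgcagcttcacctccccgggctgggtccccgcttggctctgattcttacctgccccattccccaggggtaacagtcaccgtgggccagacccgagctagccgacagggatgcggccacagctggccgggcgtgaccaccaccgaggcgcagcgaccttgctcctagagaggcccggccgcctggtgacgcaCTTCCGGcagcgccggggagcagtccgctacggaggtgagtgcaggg
ZNF12: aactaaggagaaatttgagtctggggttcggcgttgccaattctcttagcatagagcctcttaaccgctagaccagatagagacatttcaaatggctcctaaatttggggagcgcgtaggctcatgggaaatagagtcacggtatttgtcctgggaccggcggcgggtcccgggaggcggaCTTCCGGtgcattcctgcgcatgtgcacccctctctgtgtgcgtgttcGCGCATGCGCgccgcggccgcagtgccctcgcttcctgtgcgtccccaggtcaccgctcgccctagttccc
ZNF853: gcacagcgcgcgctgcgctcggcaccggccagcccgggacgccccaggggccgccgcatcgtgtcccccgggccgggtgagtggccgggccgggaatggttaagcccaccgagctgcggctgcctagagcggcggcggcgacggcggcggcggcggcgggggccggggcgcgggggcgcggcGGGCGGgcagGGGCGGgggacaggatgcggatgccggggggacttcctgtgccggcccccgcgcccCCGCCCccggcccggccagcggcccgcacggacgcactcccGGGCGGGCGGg

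The motifs searched, on both strands and with overlapping matches counted, were CCGGAAG (ETS), GGGCGG (GC box), ACTACAA (part of the ZNF143 element), GCGCATGCG (NRF1), TGACGTCA (CRE), TTGCATCA or TTTCATCA (CARE, the C/EBP-ATF element of the stress response) and AAGATGGCG (YY1). RefSeq gave 231 promoters for 177 of the 216 members, since some genes have several starts. ETS letters stood in 32.5% of the members' promoters, 16.2% of the 14373 promoters of genes tested and 10.3% of all 35116 promoters in the table. The ZNF143 part stood in 6.49% of the members' promoters against 3.30% of those tested, and NRF1 in 4.76% against 2.99%. The GC box was in 59.7% against 64.7%, CRE in 3.90% against 2.72% and YY1 in 2.60% against 3.32%. CARE letters were in 0.433% of the members' promoters (1 of 231) against 1.14%. RefSeq gave 88 promoters for 62 of the members with an upward bend, defined below. Of these promoters 36.4% held the ETS letters, 63.6% a GC box, 7.95% the ZNF143 part and 6.82% NRF1. CRE was in 2.27% of them, YY1 in 1.14% and CARE in 1.14%. A match is a description of the letters only.

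The members' RNA was higher after 60, 120 and 240 min of light than before it and came back by 600 min. Their summed level was 6041 CPM at 0 min, 7489 at 60, 8356 at 120, 8957 at 240, 6828 at 600 and 6617 at 720. The median log2 ratio of a member to 0 min, with a prior count of 2, was 0.36 at 60 min, 0.55 at 120, 0.55 at 240, 0.07 at 600 and 0.03 at 720. The last was -0.06 when libraries were scaled to total counts, where all genes had -0.07, so that the members stood 0.01 above all genes under both scalings. Over all genes tested the median stayed between -0.01 and 0.01 at these times under the main scaling. There was 1 library per time, so these differences have no replicate check. Reads per molecule were 2.11 at 60 min and 2.08 at 120 min against 2.36 at 0 and 2.32 at 240 min, and their part in the differences was not tested.

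A log2 ratio above 0 was found for 174 of the 216 at 60 min, where 49.2% of all genes had one. The number was 176 at 120 min (all genes 50.3%), 169 at 240 (50%), 123 at 600 (49.9%) and 113 at 720 (51.1%). In all, 153 members (70.8%) were above 0 at 60, 120 and 240 min together, as were 35.6% of all genes. These ratios share the library at 0 min. The exact 95% binomial interval of the ratio, which covers counting error only, lay above 0 for 97 members at 60 min (44.9%, all genes 21.9%), 139 at 120 min (64.4%, all genes 30.5%) and 129 at 240 min (59.7%, all genes 34.4%). It lay below 0 for 10 members at 60 min (4.63%, all genes 22%), 14 at 120 min (6.48%, all genes 28.3%) and 22 at 240 min (10.2%, all genes 33.5%). At 600 min it lay above 0 for 64 members (29.6%, all genes 30.2%) and at 720 min for 50 (23.1%, all genes 29.1%), and below 0 for 32 (all genes 28.9%) and 31 (all genes 26.2%).

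Changes of 2-fold or more, among members with 50 counts or more in one of the libraries compared, were mostly upward. At 60 min 9 of 171 members were at least 2-fold higher than at 0 min (5.26%, all genes 2.07%) and 1 was at least 2-fold lower (all genes 0.375%). At 120 min these were 36 of 181 (19.9%, all genes 5.89%) and 1 (all genes 2.59%), and at 240 min 43 of 184 (23.4%, all genes 10.4%) and 3 (all genes 5.8%). At 600 min 6 of 177 were higher (3.39%, all genes 6.14%) and 3 lower (all genes 4.35%), and at 720 min 5 of 172 (2.91%, all genes 4.98%) and 2 (all genes 4.21%). The share at least 2-fold higher was thus above that of all genes up to 240 min and below it after.

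**Figure D1:**
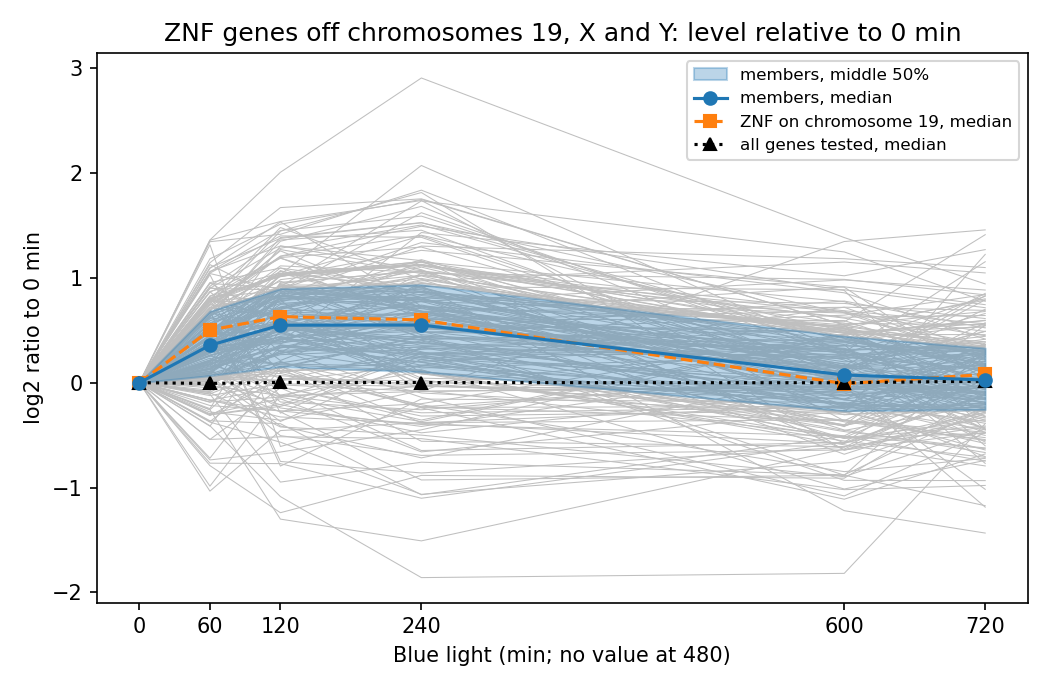
Log2 ratio to 0 min (y axis) against minutes of blue light (x axis) for each of the 216 members (grey lines), with their median and middle 50% (blue), the median of ZNF genes on chromosome 19 (orange) and of all genes tested (black). The members' median reaches 0.55 at 120 and 240 min and is 0.07 at 600, and the median of all genes stays near 0.

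Most members were highest in the library at 120 or 240 min. The highest level was at 240 min for 82 members (38%, all genes 22.7%) and at 120 min for 71 (32.9%, all genes 11.5%). The lowest was at 0 min for 78 members (36.1%, all genes 22.3%) and at 720 min for 58 (26.9%, all genes 20.5%). Across members the log2 ratios at 120 and 240 min, which share the library at 0 min, had a Spearman rho of 0.85 over 216 genes, given as a description.

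ZNF genes on chromosome 19 followed a like course. Their 211 tested members had medians of 0.50 at 60 min, 0.63 at 120, 0.60 at 240, -0.01 at 600 and 0.08 at 720. The 52 ZBTB, ZSCAN and ZKSCAN genes off 19, X and Y, which carry C2H2 fingers under other names, had medians of 0.41, 0.66, 0.69, 0.13 and 0.06. No test of a difference between these families and the members was made.

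Each gene was also tested over time with edgeR's quasi-likelihood test, with Benjamini-Hochberg adjustment over all 13566 genes and a threshold of 0.05. The trend is the fitted log2 change from 0 to 720 min. The bend comes from a fitted parabola, as its log2 height at 360 min above the midpoint of its ends at 0 and 720 min, so a gene that goes up and comes back has a bend above 0. An upward bend was called for 76 members (35.2%), where it was called for 17% of all genes and 18.1% of the genes tested on the same 6 libraries. The share was 28% for ZNF genes on chromosome 19 and 44.2% for the 52 ZBTB, ZSCAN and ZKSCAN genes. For the 10 ZNF genes tested on X and Y it was 40%. A downward bend was called for 8 members (3.7%), against 14.3% of all genes and 13% of those on 6 libraries. It was called for 4.27% of ZNF genes on chromosome 19 and 3.85% of the ZBTB, ZSCAN and ZKSCAN genes. Bends were above 0 for 162 members (75%, all genes 50.3%) and below 0 for 54, with a median of 0.59 (all genes 0.01). The count of 76 rested on the libraries at 0 and 240 min. Without 0 min it was 18 of 215 (8.37%, all genes 8.59%), and without 240 min it was 9 of 215 (4.19%, all genes 5.51%). Without any other library the count lay between 53 and 92. Bends were above 0 for 150 of 215 members without 0 min (69.8%, all genes 51.2%) and for 160 without 240 min (74.4%, all genes 49.3%), with medians of 0.27 and 0.63.

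Of the 76 upward calls, 60 were highest at 240 min, 13 at 120, 2 at 600 and 1 at 60. The largest bend among them was that of ZNF697, a protein with 11 fingers. It stood at 11.9 CPM at 0 min, 31 at 60, 48.6 at 120, 91.0 at 240, 31.5 at 600 and 23.1 at 720, so that every lit library was above the unlit one. At 240 min it was 7.63-fold above 0 min (log2 interval 2.63 to 3.24), and its bend was 2.59 ± 0.39 (SE, edgeR adjusted p = 0.00245). ZNF697 had the highest or second highest log2 ratio among members of at least 50 counts at 60, 120, 240 and 600 min.

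ZNF654, with 5 fingers in a long protein, stood at 11.3 CPM at 0 min, 19.6 at 60, 23.3 at 120, 30.3 at 240, 12.2 at 600 and 7.58 at 720. It was thus highest at 240 min and lowest at 720, with a bend of 1.69 ± 0.27 (edgeR adjusted p = 0.00154). ZNF23, a KRAB protein with 16 fingers, stood at 90.4 CPM at 0 min, 117 at 60, 159 at 120, 196 at 240, 123 at 600 and 98.2 at 720, with a bend of 1.14 ± 0.19 (edgeR adjusted p = 0.00157). ZNF644, a partner of the histone methyltransferases G9a and GLP, stood at 43.2, 64.4, 75.2, 80.6, 48.9 and 31.8 CPM at the 6 times in order. Its bend was 1.16 (edgeR adjusted p = 0.00229), and that of ZNF518A was 1.43 (edgeR adjusted p = 0.0026). The calls of ZNF697, ZNF654, ZNF23, ZNF644 and ZNF518A held with each library left out and under every other setting tried.

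ZNF804A, a gene known from schizophrenia association studies, stood at 19.9, 30.4, 37.1, 50.5, 36.2 and 26.6 CPM at 0, 60, 120, 240, 600 and 720 min, with a bend of 1.27 (edgeR adjusted p = 0.00211). ZNF425, a KRAB protein, stood at 4.09, 5.56, 7.93, 14.2, 10.0 and 7.18 CPM, with a bend of 1.62 (edgeR adjusted p = 0.00292). Both were highest at 240 min. Without the 240 min library neither was called (adjusted p = 0.0519 for ZNF804A and 0.111 for ZNF425).

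ZNF16 and ZNF34, of one run of ZNF genes on chromosome 8, were among the genes of largest early ratio. ZNF16 stood at 11.5 CPM at 0 min, 29.5 at 60, 30.9 at 120, 41.5 at 240, 13.8 at 600 and 14.6 at 720. ZNF34, a KRAB gene, stood at 3.15, 8.48, 9.62, 11.1, 2.40 and 3.85 CPM at the same times. At 60 min ZNF16 was already 2.57-fold above 0 min (log2 interval 1.01 to 1.72) and ZNF34 2.69-fold (0.75 to 2.14). ZNF16's bend of 1.54 was called (edgeR adjusted p = 0.0369). It was not called without the 0, 120 or 240 min library, with no count filter or with read counts (adjusted p up to 0.30). ZNF34's bend of 1.5 was not called (edgeR adjusted p = 0.0951). It was called with time on a log or rank scale and without the 600 or 720 min library.

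**Figure D2:**
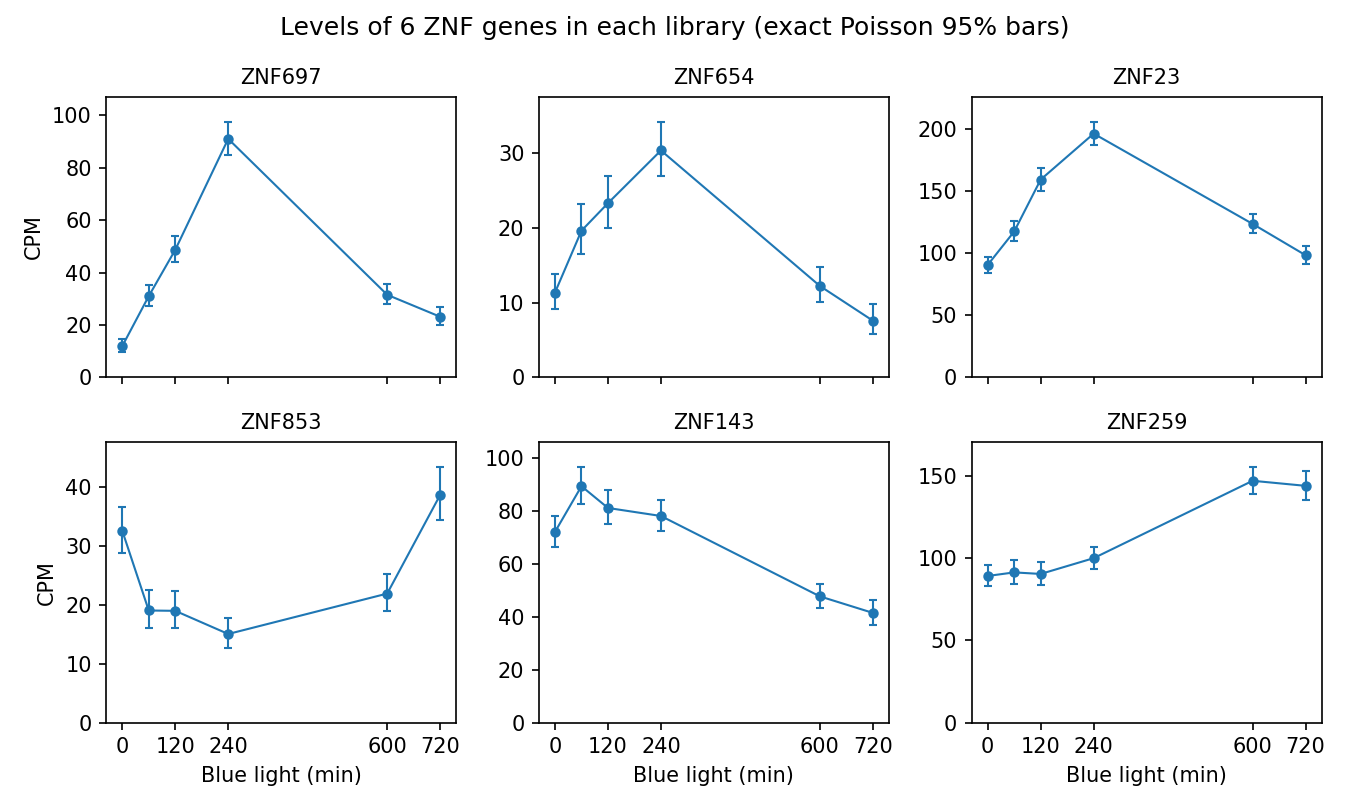
Level in CPM (y axis, from 0) in each library against minutes of blue light (x axis) for 6 members; bars are exact Poisson 95% intervals of the count, which cover counting error only. ZNF697, ZNF654 and ZNF23 are highest at 240 min, ZNF853 is lowest there, ZNF143 is lowest and ZNF259 highest in the libraries at 600 and 720 min.

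The 8 downward bends belonged to ZNF853, ZNF362, ZNF662, ZNF768, ZNF483, ZNF771, ZNF219 and ZNF385A. ZNF853 stood at 32.6 CPM at 0 min, 19.0 at 60, 19.0 at 120, 15.1 at 240, 21.9 at 600 and 38.7 at 720. The 3 libraries from 60 to 240 min were all below those at 0 and 720, with a bend of -1.33 ± 0.24 (SE, edgeR adjusted p = 0.0025) that held without each library. ZNF362 stood at 30.4, 23.4, 20.4, 14.4, 17.9 and 24.7 CPM at the 6 times, with a bend of -1.04 (edgeR adjusted p = 0.00579). ZNF771 stood at 18.5, 10.6, 7.67, 9.89, 9.70 and 17.3 CPM, with a bend of -1.18 (edgeR adjusted p = 0.017). All 8 were lower at 240 than at 0 min. The calls other than that of ZNF853 were each lost without 1 or more libraries. Leaving out 240 min lost ZNF362, ZNF662, ZNF768, ZNF483, ZNF219 and ZNF385A, leaving out 0 min lost ZNF483, ZNF771 and ZNF219, and leaving out 720 min lost ZNF662, ZNF768, ZNF771, ZNF219 and ZNF385A. The log time scale lost ZNF662, ZNF219 and ZNF385A and DESeq2 lost ZNF483 and ZNF385A, and adjusted p was up to 0.24 in all these cases. ZNF662 rested on 6 to 26 counts per library and ZNF483 on 12 to 36. Both had UMI counts that were not whole in all 6 libraries, a limit given below. ZNF662 had 6 counts at 240 and at 600 min and passed the count threshold only through the other libraries, which favours a downward bend.

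A trend was called for few members. It rose for 2 (0.926%, all genes 3.92%, genes on 6 libraries 3.11%) and fell for 3 (1.39%, all genes 2.93%, genes on 6 libraries 2.24%), and no member had both a trend and a bend. At an unadjusted p under 0.05 the trend rose for 10 and fell for 19. ZNF143, an activator that binds many housekeeping promoters, stood at 72.1 CPM at 0 min, 89.4 at 60, 81.1 at 120, 78.1 at 240, 47.7 at 600 and 41.5 at 720, so the libraries at 600 and 720 min were below all earlier ones. Its trend was -1.03 ± 0.23 (SE, edgeR adjusted p = 0.0349). ZNF503, a developmental corepressor, fell likewise, from 63.1 to 38.4 CPM (trend -1.04, edgeR adjusted p = 0.047), after 85.2 at 120 min. ZNF618 fell from 63.1 to 38.1 CPM (trend -0.95, edgeR adjusted p = 0.0353).

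ZNF259 (now ZPR1, a chaperone of the elongation factor eEF1A) rose. It stood at 89.1, 91.3, 90.4 and 99.97 CPM up to 240 min, and at 147 at 600 min and 144 at 720 (trend 0.81 ± 0.17, SE, edgeR adjusted p = 0.027). ZNF469, a gene of brittle cornea syndrome, stood at 3.04, 3.61, 2.99 and 2.86 CPM up to 240 min and at 8.10 and 8.77 after it (trend 1.69, edgeR adjusted p = 0.0263). In both, the libraries at 600 and 720 min stood above all earlier ones. Each of the 5 trend calls was lost without the library at 60, 120, 600 or 720 min and on the log and rank time scales. That of ZNF618 was also lost with read counts, and that of ZNF503 without 480 min. Adjusted p was up to 0.23 in all these cases. ZNF503 has no value at 480 min, so that loss came through the other genes fitted and adjusted with it.

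Among members of known role, the ribosome and RNA group had 3 upward bends, 1 downward bend and no trend among 8, where 17% of all genes bent upward and 14.3% downward. ZNF598, the ubiquitin ligase that marks collided ribosomes, stood at 20.3 CPM at 0 min, 19.3 at 60, 33.6 at 120, 40.1 at 240, 45.4 at 600 and 42.3 at 720. It remained at least 2.08-fold above 0 min in the last 2 libraries, where the median member was near its 0 min level, and its bend of 0.76 was called (edgeR adjusted p = 0.0299), though not when the 0, 120 or 240 min library was left out (adjusted p up to 0.22) or on the log or rank time scale (up to 0.51). ZNF330, a nucleolar protein, rose from 61.3 CPM at 0 min to 125 at 240 (bend 0.79, edgeR adjusted p = 0.0181), and ZNF638, an RNA-binding protein that silences unintegrated viral DNA, from 153 to 219 (bend 0.72, edgeR adjusted p = 0.00889). The bend of ZNF385A, which binds mRNAs, was -1.15, at 3.95 to 11.7 CPM. ZNF593 and ZNF622, which act in maturation of the large ribosomal subunit, passed neither test. ZNF593 stood at 64.6 to 78.0 CPM up to 240 min and at 108 and 118 after it, and ZNF622 at 47.2 to 64.0 CPM throughout. The calls of ZNF330 and ZNF638 were lost without 240 min, that of ZNF330 also without 0 min (adjusted p up to 0.30).

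The promoter and chromatin factors without a KRAB box had 8 upward bends and no downward one among 20 (all genes 17% and 14.3%), with the falling trends of ZNF143 and ZNF503. ZNF292 stood at 36.7, 69.6, 94.7, 101, 36.9 and 33.1 CPM at the 6 times, with a bend of 1.49 (edgeR adjusted p = 0.017). ZNF532 and ZNF592, subunits of a complex they form with ZNF687, had bends of 0.92 (edgeR adjusted p = 0.00276) and 0.90 (edgeR adjusted p = 0.0137). ZNF532 stood at 71.2 CPM at 0 min and 130 at 240, and ZNF592 at 26.4 and 51.4. ZNF687 itself stood at 17.8 to 19.4 CPM in all 6 libraries (bend -0.01, edgeR adjusted p = 0.98). ZNF24, a SCAN protein and one of the most abundant members, stood at 123, 210, 209, 277, 126 and 127 CPM (bend 1.02, edgeR adjusted p = 0.0268). Without the 240 min library the bends of ZNF292, ZNF532, ZNF592 and ZNF24 were not called, and without 0 min those of ZNF292, ZNF592 and ZNF24 were not (adjusted p up to 0.30).

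ZNF217, an oncogene of breast cancer that sits in corepressor complexes, moved up and down again by more than 3-fold. It stood at 67.1 CPM at 0 min, 113 at 60, 183 at 120, 236 at 240, 42.8 at 600 and 53.4 at 720. It was 3.53-fold above 0 min at 240 min (log2 interval 1.68 to 1.95) and below 0 min in the last 2 libraries. Its bend of 1.82 ± 0.73 was not called (SE, edgeR adjusted p = 0.143). It was called without the 600 min library or the 720 min library and on the log and rank time scales. ZNF76, the close relative of ZNF143, stood at 7.94, 3.75, 5.72, 6.04, 6.16 and 5.45 CPM and passed neither test.

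The KRAB repressors with a described target had 1 upward bend among 6 (16.7%, all genes 17%). It was that of ZNF398, at 23.8 CPM at 0 min, 45.8 at 120 and 22.2 at 720 (bend 0.85, edgeR adjusted p = 0.0302), which was lost when the 0, 60, 120 or 240 min library was left out (adjusted p up to 0.30). ZNF10, whose KRAB box is the one most used in engineered repressors, stood at 20.4, 32.0, 38.9, 35.2, 17.5 and 17.8 CPM, highest at 120 min (bend 0.83, edgeR adjusted p = 0.0615). ZNF746 (PARIS) stood at 108 CPM at 0 min and 157 at 240 (bend 0.43, edgeR adjusted p = 0.0946), and ZNF445, a keeper of imprints, at 9.93 to 13.5 CPM throughout. The cell division and genome upkeep group had 2 upward bends among 4 (all genes 17%). ZNF451, a SUMO ligase, stood at 51.1 CPM at 0 min, 111 at 240 and 75.5 at 720 (bend 0.94, edgeR adjusted p = 0.0131). ZNF365 was the other, at 1.20 to 4.83 CPM. ZNF207 (BUGZ), which serves the spindle checkpoint, stood at 228 CPM at 0 min and lower at each later time, down to 148 at 720 (trend -0.50, edgeR adjusted p = 0.111). Without 240 min the bends of ZNF451 and ZNF365 were not called, nor that of ZNF451 without 0 min or of ZNF365 without 720 min, on the log time scale or with DESeq2 (adjusted p up to 0.20).

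At the last times single members left the common course. ZNF608 stood at 21.6 CPM at 0 min, 41.2 at 240, 9.13 at 600 and 7.84 at 720, the lowest log2 ratios at these last times among members of at least 50 counts (-1.22 and -1.43). ZNF720 stood at 5.49 CPM at 0 min and 15.0 at 720, the only library in which it was more than 2-fold higher (2.74-fold, log2 interval 0.95 to 1.97). Of the most abundant members, ZNF770 stood at 386, 527, 569, 687, 539 and 571 CPM (bend 0.58, edgeR adjusted p = 0.0246, lost without the library at 0, 120 or 240 min and with UMI counts, adjusted p up to 0.33). ZNF664, of the highest mean level, stood at 527 to 589 CPM in all 6 libraries.

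By chromosome, the members were spread over 19 autosomes, from 3 on chromosomes 14 and 22 to 28 on chromosome 7 and 29 on chromosome 16. The median log2 ratio at 240 min was above 0 on each of them, from 0.12 on chromosome 20 (7 members) and 0.17 on chromosome 14 (3 members) to 0.81 on chromosome 8 (15), 0.83 on chromosome 15 (5) and 1.07 on chromosome 6 (8). At 120 min it was above 0 on all but chromosome 14 (-0.23). At 720 min it ran from -0.27 on chromosome 20 to 0.55 on chromosome 22, and was below 0 on chromosomes 3, 5, 6, 9, 11, 14, 18 and 20. The higher level from 120 to 240 min was thus found on nearly every chromosome with members.

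Upward bends, called for 17% of all genes, were found on 17 of the 19 chromosomes, all but 14 and 22. They numbered 10 of 29 on chromosome 16, 8 of 28 on chromosome 7, 7 of 15 on chromosome 8, 7 of 14 on chromosome 3, 7 of 13 on chromosome 9, 5 of 18 on chromosome 1 and 5 of 8 on chromosome 6. Chromosome 16 also had 2 downward bends, and chromosomes 1, 3, 7, 9, 12 and 14 had 1 each. The median bend was highest on chromosome 9 at 1.04 and chromosome 6 at 0.96, and it was 0.26 on chromosome 1 and -0.21 on chromosome 22, where it rested on 3 genes. No test between chromosomes was made.

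**Figure D3:**
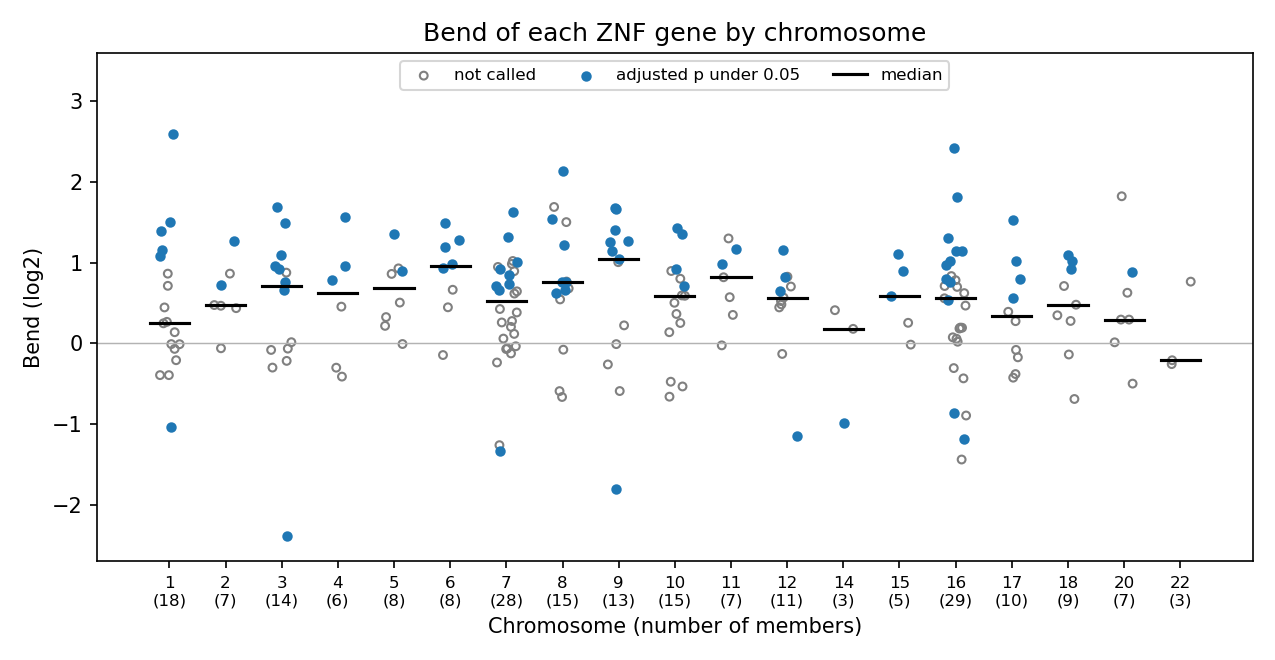
Bend of each member in log2 (y axis) by chromosome (x axis, number of members in brackets), filled where the adjusted p was under 0.05, with the median as a black line. Medians lie above 0 on every chromosome but 22.

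Neighbouring ZNF genes did not always move together. Runs of 4 or more members with at most 3 other genes between one and the next, in the order of the reference annotation, numbered 9 and held 54 members. Over all genes tested, 50.3% had a bend above 0, 17% were called upward and 14.3% downward. In the run of 7 on chromosome 16 from ZNF205 to ZNF597, all 7 bends were above 0 and 4 were called upward. ZNF597, 1 of the 4, had 8, 17, 27, 34, 13 and 4 counts at the 6 times. It passed the count threshold only through the libraries from 60 to 600 min, which favours an upward bend. In the run of 6 on chromosome 12 from ZNF605 to ZNF268 all 6 were above 0 and 2 were called. In the second run of 7 on chromosome 16, from ZNF48 to ZNF689, 2 were called upward and 2 downward. In that run ZNF48 stood at 8.41 CPM at 0 min and 18.3 at 240, and its neighbour ZNF771 at 18.5 and 9.89. ZNF764, a KRAB gene, stood at 11.7 CPM at 0 min and 29 at 240 (bend 1.30), while ZNF768 in the same run stood at 46.2 and 34.5 (bend -0.86). ZNF597, ZNF48 and ZNF764 were picked here after their values were seen. Near-identical neighbours can share reads in counting. Of the 216, 47 had deposited UMI counts that were not whole, within a tolerance of 1e-06, in some library and 18 in all 6, so their levels are less certain.

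Protein features, which the rule did not use, were read from the reference translations of 211 members. The other 5 had no protein in the reference. A KRAB box (12 or more of 17 anchor residues) was found in 83, with a median log2 ratio of 0.78 at 120 min. Of these, 26 had an upward bend (31.3%, all genes 17%) and 2 a downward one (all genes 14.3%). A partial match was found in 10, with 3 upward bends. The search can miss a box: ZNF720, now named KRABD5, was among those with none found. Of the 118 in which none was found 45 bent upward (38.1%) and 6 downward, with a median at 120 min of 0.47. The KRAB genes had a median mean level of 11.2 CPM and the others of 23.8. Upward bends were called for 54.2% of the third of members with the highest levels and 16.7% of the third with the lowest, whose median bends were 0.67 and 0.46, so the shares called move with level. Members with a SCAN domain had 7 upward bends among 17 (41.2%, all genes 17%).

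From 1 to 4 fingers upward, the median ratio at 120 min was higher in each group with more fingers. The 8 members in which no finger was found had a median log2 ratio of 0.39 at 120 min, and the 37 members with 1 to 4 fingers had a median log2 ratio at 120 min of 0.35 and at 240 min of 0.40. The 74 with 5 to 9 had 0.52 and 0.52, the 63 with 10 to 14 had 0.71 and 0.65, and the 29 with 15 or more had 0.89 and 0.77. Of these 29, 28 were above 0 at 240 min (all genes 50%) and 28 had a bend above 0 (all genes 50.3%). An upward bend was called for 13 of them (44.8%, all genes 17%). Spearman's rho of finger number and bend was 0.23 over the 211 members with a protein, which share the same 6 libraries, and is given as a description. At 720 min the 29 had a median of -0.08.

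**Figure D4:**
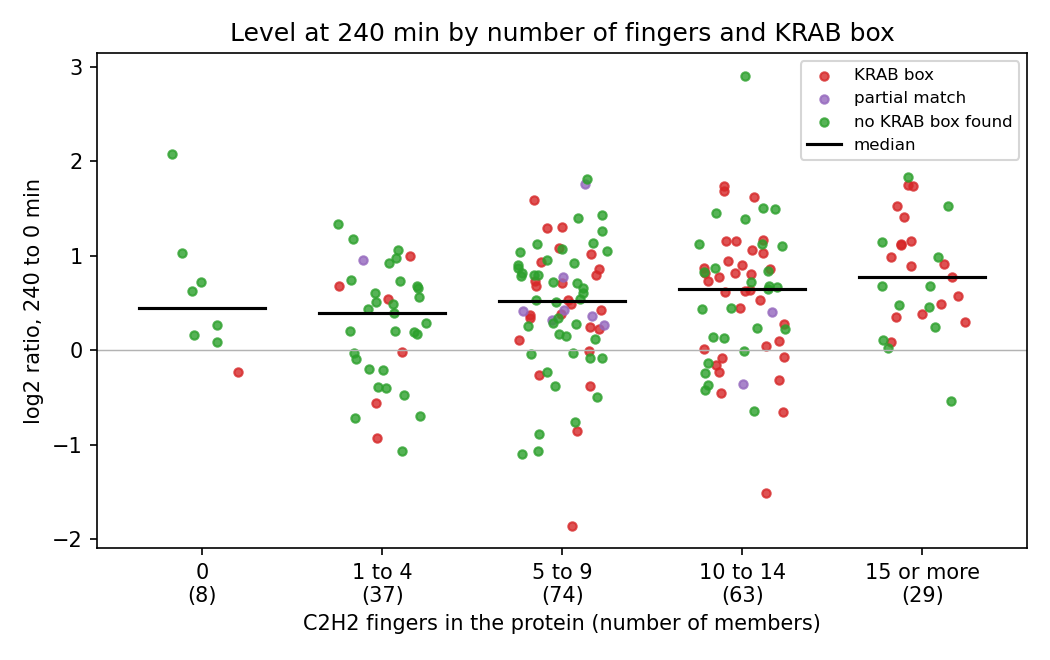
Log2 ratio of 240 to 0 min (y axis) of each member by the number of C2H2 fingers in its protein (x axis, number of members in brackets), coloured by KRAB box. Medians (black lines) run from 0.40 for 1 to 4 fingers to 0.77 for 15 or more, and 28 of the 29 members in the last group lie above 0.

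Of 21 genes of the machinery through which KRAB proteins silence, 5 bent upward (SETDB1, ATF7IP, FAM208A, SMARCAD1 and TRIM33), where 17% of all genes did. Downward bends were called for 2 (CBX1 and HDAC1, all genes 14.3%), 1 had a falling trend (DNMT1, all genes 2.93%), and the median bend was 0.13 (all genes 0.01). No test of a difference from the members was made. TRIM28, which KRAB boxes bind, stood at 327 CPM at 0 min, 268 at 60, 262 at 120, 242 at 240, 232 at 600 and 266 at 720, below its 0 min level in every lit library (bend -0.38, edgeR adjusted p = 0.0742). SETDB1, the histone methyltransferase of the complex, stood at 39.6, 47.4, 72.8, 81.8, 44.5 and 43.7 CPM (bend 1.03, edgeR adjusted p = 0.0109).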

How the data were processed

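RNA of 7 H4 cultures, 1 per light time, was counted at 3′ ends with unique molecular identifiers (UMIs) by an adaptation of CEL-Seq2, per the labels. The authors deposited estimated counts per gene as reads, UMIs and transcripts (UMIs corrected for collisions), made with BWA on hg19 per the submitters' processing notes. No source used here gives the annotation or the counting of shared reads. The transcript counts of barcode 4 were used and rounded, and the other 95 barcode columns of each table were not. The 480 min table is incomplete, so members were fitted on 6 libraries, with 4 residual degrees of freedom for the trend and 3 for the bend.

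The fit took every gene at 10 counts in 3 or more libraries, by edgeR 4.0.16 (R 4.3.3; TMM, robust quasi-likelihood F test, Benjamini-Hochberg). P-values measure the scatter of single libraries about a line or parabola. Each SE is the size of the estimate divided by the square root of its F statistic. It is thus derived from the test and is no separate measure of precision. The procedure was tried on simulated counts with planted lines or parabolas and a fixed scatter, which need not match the scatter of these libraries. Only the median fitted change was held to a limit there, so the trial is no check of the p-values. Alternatives were RLE scaling, 2 other count filters, UMI or read counts, log or rank time, DESeq2 1.42.0, a prior count of 0.5 and each library left out.

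Genes were named by role, by the smallest p or largest change among those called, by the most extreme ratios at each time, by level and by nearness to the threshold, and others as said beside them. Members and lists were chosen with earlier results of these data known. The promoters are RefSeq's (GRCh38.p14). Proteins were translated from GENCODE coding transcripts, where the design named RefSeq proteins. A finger is C, 2 to 4 residues, C, 12 residues, H, 3 to 5 residues, H.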

Additional observations from a re-analysis of the deposited data

How the results depend on the processing

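No paired analysis was possible because each time has 1 library. Under RLE or total-count scaling, UMI or read counts and a prior count of 0.5 the members' median log2 ratio lay between 0.36 and 0.39 at 60 min, 0.51 and 0.59 at 120 and 0.51 and 0.61 at 240, and only at 720 min did it change sign (-0.06 with total counts, where all genes had -0.07). The 76 upward bends ranged from 61 to 104 under the other scalings, filters, counts, time scales and DESeq2, and from 9 to 92 with each library left out (18 without 0 min, 9 without 240). The 8 downward bends ranged from 2 (without 240 min) to 9 with each library left out, with 5 without 720 min. Rising trends, 2 in the main fit, numbered 1 with a mean of 50 or more counts, with log time and with rank time. They numbered 5 with DESeq2 and 0 to 4 with each library left out. With log and rank time the 1 was another member, since ZNF469 and ZNF259 were both lost there. The 3 falling trends became 0 with log time and with rank time, 8 with DESeq2 and 0 to 23 with each library left out, the last without 0 min. With a minimum of 20 counts in place of 50, members at least 2-fold lower numbered 3 at 120 min, 5 at 240, 6 at 600 and 4 at 720, where more genes of low count entered; the cause of the other moves was not tested. The naming rules picked 38 calls among members, not all described above. Of these, 6 held under all alternatives, 32 were lost under at least 1 and 0 reversed. Cell type markers, the genes listed around KRAB silencing and members picked after their values were seen were not put to this check. The median member had 124.5 counts at 0 min, and 164 of the 216 had 50 or more, so counting error is widest in the rest.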
